A study of Mus musculus with 10 samples.

Results

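The 4 mouse genes of the nuclear factor I (NFI) family, *Nfia*, *Nfib*, *Nfic* and *Nfix*, were examined in peak lists of accessible chromatin and of the histone mark H3K4me3. A peak was assigned to an NFI gene when it lay in the gene body or within 50 kb of it and its nearest protein-coding transcription start site (TSS) was one of that gene. Peaks of 6 ATAC-seq lists were merged where they overlap or abut, and each merged interval is called a site. The rule took 110 of 108367 sites, 22 of 17166 H3K4me3 peaks of quiescent cells and 18 of 15962 H3K4me3 peaks of activated cells.

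NFI proteins are transcription factors that bind DNA as dimers, at a palindrome made of the letters TTGGC and their reverse complement, and also more weakly at a single copy of these letters. In the developing brain they are known for the onset of gliogenesis and for the switch of neural progenitors from self-renewal to differentiation, with *Nfia* an early factor of astrocyte formation. *Nfix* is known for its role in quiescence of postnatal neural stem cells.

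The cells were neural stem and progenitor cells (NSPCs) from the brains of C57BL/6 mice at postnatal day 5, grown as primary cultures and used at early passage, so each library is a mixture of stem and progenitor cells. Activated NSPCs were kept in FGF2 and EGF, each at 20 ng/ml. Quiescent NSPCs were kept in FGF2 at 20 ng/ml with BMP4 at 25 ng/ml and without EGF, for 4 days by the sample labels, while the methods give a shorter time before ATAC-seq. Reactivated NSPCs had BMP4 for 4 days and were then returned to FGF2 and EGF for 9 to 12 days, so all 3 states had FGF2. ATAC-seq, in which the Tn5 transposase cuts open chromatin, was done with 2 libraries per state from biologically independent cultures. H3K4me3, a mark of active promoters, was measured in 1 library per state for quiescent and activated cells, so its differences have no replicate check and no test.

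Across the series the lists held 54713 and 60355 peaks in the quiescent libraries, 58327 and 47037 in activated, and 106270 and 106830 in reactivated cells. The second quiescent library stood apart, with a genome background of 12.1 reads of pileup against 6.01 to 6.61 in the other 5 libraries and a lowest called pileup of 25 against 16 or 17. In every library 6 or 7 of 7 NSPC genes had a promoter peak, *Sox2*, *Nes*, *Pax6*, *Fabp7*, *Vim* and *Sox9* among them. Promoter peaks were found at 1 to 3 of 4 astrocyte genes, 2 or 3 of 4 neuron genes, 0 or 1 of 4 microglia genes, 0 of 3 endothelial genes and 0 to 2 of 3 fibroblast genes. Of the oligodendrocyte-lineage genes given here, *Olig2* and *Pdgfra* had a promoter peak in all 6 libraries and *Sox10* in none. *Gfap*, *Dcx*, *Aif1*, *Csf1r*, *Ptprc*, *Cldn5*, *Pecam1*, *Cdh5* and *Col1a2* also had no promoter peak in any library. Accessibility summed over a culture cannot tell fewer open cells from less opening per cell.

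The sequences that follow are 200 bp around the summits of 6 sites, one for each pattern described further on. They were read from the plus strand of GRCm38 (mm10). Capitals mark each match, on either strand, to the NFI palindrome (TTGGC, any 5 bases, then its reverse complement), the single NFI element TTGGC, the E-box CAGCTG bound by neural bHLH factors, the SMAD element GGCGCC of the BMP pathway, or the AP-1 element TGANTCA. The single NFI element is part of the palindrome. Of all 108367 windows of this length in the series, 0.102% held the palindrome, 44.6% the single NFI element, 21.7% the E-box, 6.19% the SMAD element and 7.59% the AP-1 element. The first window, chr4:97910898-97911097, is from the *Nfia* site that was stronger in the activated libraries and reactivated than in quiescent cells.
Nfia 138 kb: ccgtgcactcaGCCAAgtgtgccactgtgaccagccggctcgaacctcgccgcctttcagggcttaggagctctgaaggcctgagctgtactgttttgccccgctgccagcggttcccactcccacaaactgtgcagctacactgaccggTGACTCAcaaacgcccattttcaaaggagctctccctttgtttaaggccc
The second, chr4:98091571-98091770, is from the strongest *Nfia* site with peaks in the quiescent libraries and none in activated cells.
Nfia 319 kb: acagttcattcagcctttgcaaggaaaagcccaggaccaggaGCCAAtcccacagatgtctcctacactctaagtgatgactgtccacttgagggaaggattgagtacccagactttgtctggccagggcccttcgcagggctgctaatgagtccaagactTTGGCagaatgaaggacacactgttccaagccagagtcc
The third, chr4:82435774-82435973, is from the strongest *Nfib* site with peaks in the activated libraries and none in quiescent cells.
Nfib 270 kb: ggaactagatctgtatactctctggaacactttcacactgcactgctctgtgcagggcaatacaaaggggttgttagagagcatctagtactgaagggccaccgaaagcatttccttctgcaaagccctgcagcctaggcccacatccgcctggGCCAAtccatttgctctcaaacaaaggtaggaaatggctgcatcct
The fourth, chr4:82704886-82705085, lies within 1 kb of the most upstream *Nfib* TSS, where the ATAC peaks and the H3K4me3 peak of quiescent cells were absent from the lists of activated cells, and it held none of the 5 motifs.
Nfib 0.579 kb: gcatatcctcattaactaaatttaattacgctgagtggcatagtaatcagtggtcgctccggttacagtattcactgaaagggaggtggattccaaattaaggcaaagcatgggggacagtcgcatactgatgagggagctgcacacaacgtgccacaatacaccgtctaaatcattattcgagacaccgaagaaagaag
The fifth, chr8:84811061-84811260, is from the strongest *Nfix* site away from promoters.
Nfix -10.8 kb: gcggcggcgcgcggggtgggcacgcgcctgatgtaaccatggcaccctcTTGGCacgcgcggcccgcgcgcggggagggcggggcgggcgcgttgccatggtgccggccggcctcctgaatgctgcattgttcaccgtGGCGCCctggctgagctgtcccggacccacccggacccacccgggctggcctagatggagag
The last, chr10:81432974-81433173, is from the strongest *Nfic* site away from promoters and held 3 single NFI elements.
Nfic 22.6 kb: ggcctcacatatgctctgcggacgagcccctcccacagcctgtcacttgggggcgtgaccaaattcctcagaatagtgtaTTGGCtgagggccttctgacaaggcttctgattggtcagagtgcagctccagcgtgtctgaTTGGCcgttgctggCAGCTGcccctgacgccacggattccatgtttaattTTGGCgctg

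*Nfib* held the most sites, followed by *Nfia*, and both were among the genes with the most sites in the series, in GENCODE M21 models with all TSSs. With RefSeq models, chosen after the data were seen, *Nfia* held 74 sites and *Nfib* 34, and with 1 TSS per gene *Nfia* held 8 and *Nfib* 50, so the order of the members rests on the gene models. *Nfia* (ENSMUSG00000028565.18) spans chr4:97772734-98118874 on the plus strand and had 36 sites. *Nfib* (ENSMUSG00000008575.17) spans chr4:82290173-82705750 on the minus strand and had 50 sites. *Nfic* (ENSMUSG00000055053.18) spans chr10:81396186-81455635 on the minus strand and had 13 sites. *Nfix* (ENSMUSG00000001911.16) spans chr8:84699876-84800344 on the minus strand and had 11 sites. Among 17945 genes with a site, where the median gene had 3, *Nfib* ranked 19, *Nfia* 74, *Nfic* 1074 and *Nfix* 1488. Per 100 kb of gene and flanks, *Nfib* had 9.70 sites, *Nfic* 8.15, *Nfia* 8.07 and *Nfix* 5.49, against a median of 2.34 over all genes. The 3 densest thus lay between the 95.8 and 98.1 percentiles of genes and *Nfix* at the 86.3 percentile.

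Of the 110 sites, 84 lay in introns, 16 at promoters (within 1 kb of a protein-coding TSS), 7 over exons and 3 between genes. The promoter share was 14.5%, against 19.3% of all sites. Introns held 41 of 50 sites of *Nfib* and 30 of 36 of *Nfia*, whereas promoters held 5 of 11 sites of *Nfix*. The 5′ end of *Nfia* overlaps *E130114P18Rik*, a protein-coding gene of the opposite strand, and peaks nearer to a TSS of that gene were not counted. Only 1 of the 110 sites lay more than 25 kb from its gene.

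**Figure D1:**
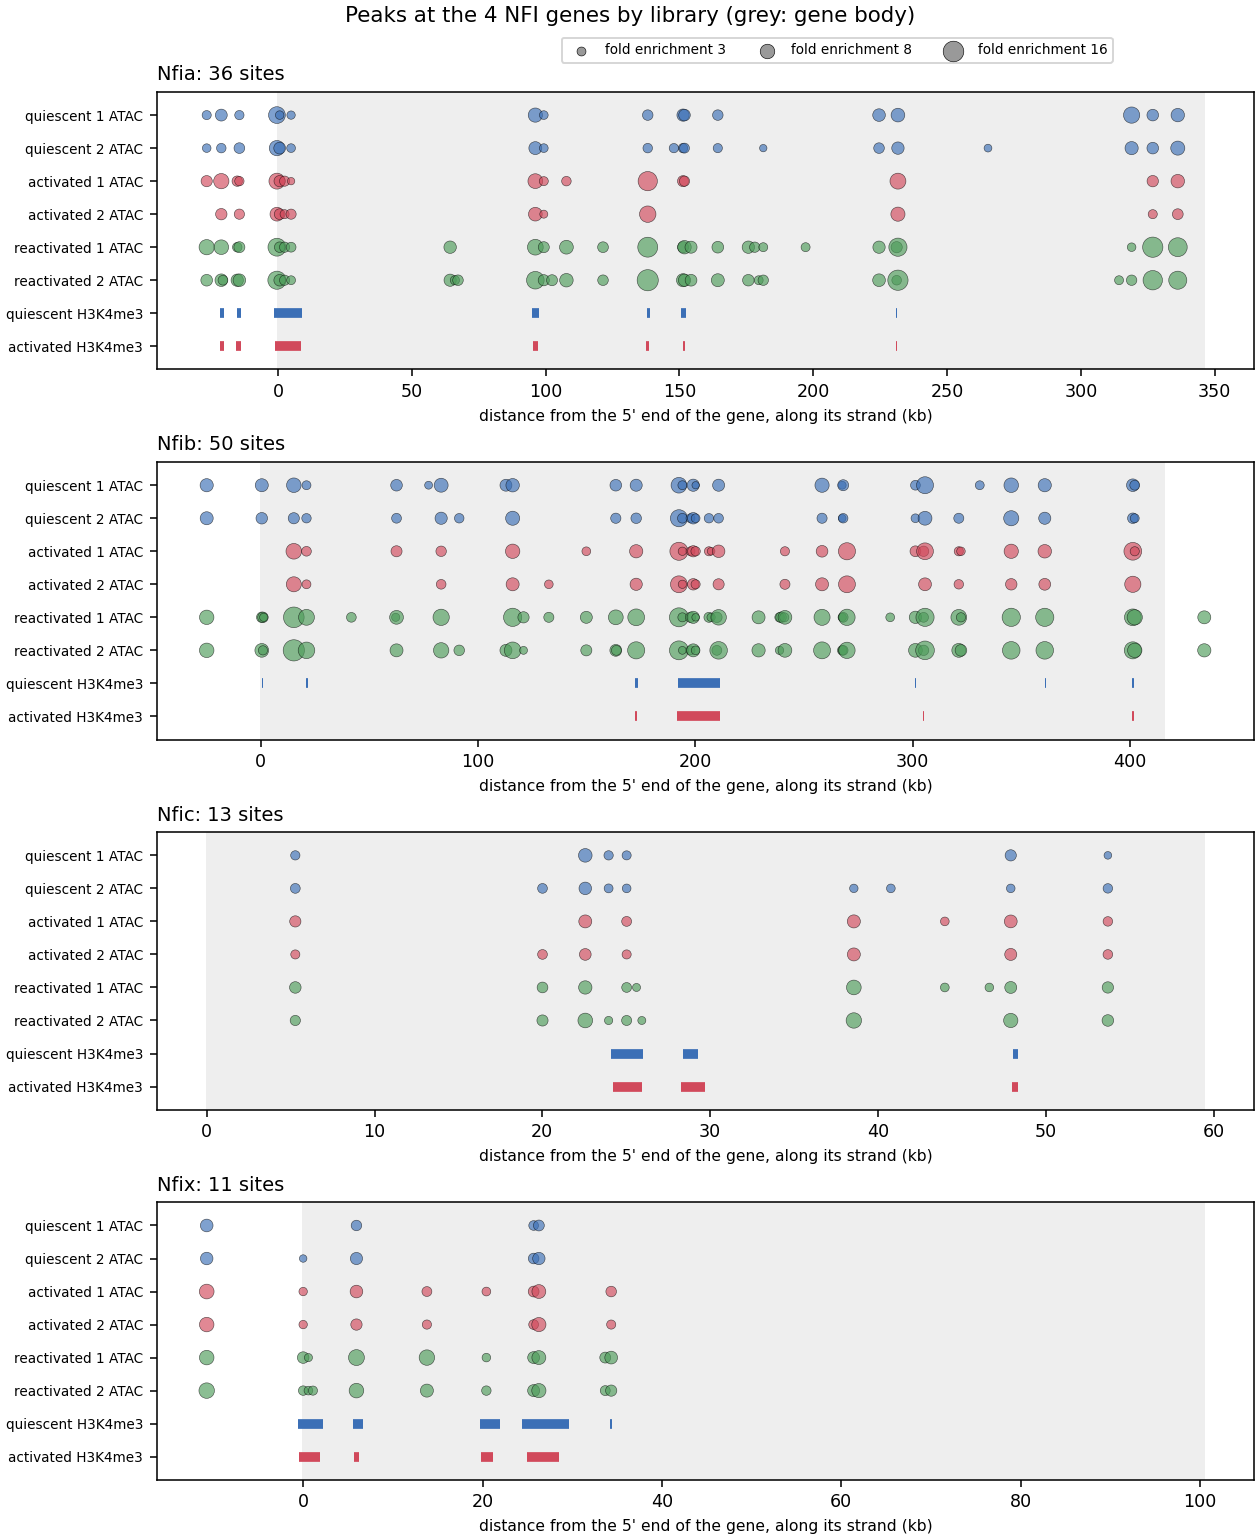
Peaks of each ATAC-seq and H3K4me3 library along the 4 NFI genes, by distance in kb from the 5′ end of the gene along its strand, with the gene body in grey and the size of ATAC points showing fold enrichment. *Nfib* has 50 sites and *Nfia* 36, spread over the gene bodies, while *Nfic* and *Nfix* have 13 and 11.

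The share of NFI sites found in all 6 lists was above that of sites in general with the lists as deposited, but not with stronger peaks alone. There were 53 and 61 NFI sites with a peak in the quiescent libraries, 59 and 45 in the activated and 93 and 91 in the reactivated. The lists of reactivated cells were also the longest. A peak in all 6 lists was present at 35 NFI sites (31.8%, exact 95% interval 23.3 to 41.4%), against 21.3% of all sites. With a minimum −log10 q of 10 the shares were 20.7% and 21.7%, and with RefSeq models 22.9% and 21.3%. The 35 were 15 sites of *Nfib*, 11 of *Nfia*, 5 of *Nfic* and 4 of *Nfix*. Peaks in 1 library alone made up 24 sites. Intervals of shares cover counting error only, and sites of 1 gene are not independent.

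At 9 NFI sites both quiescent libraries had a peak and neither activated library did (quiescent-specific). That is 14.8% (exact 95% interval 6.98 to 26.2%) of the 61 NFI sites with peaks in at least 2 of these 4 libraries, against 14.7% of all such sites. At 5 NFI sites both activated libraries had a peak and neither quiescent library did (activated-specific), or 8.20% (2.72 to 18.1%) against 9.97%. Both shares are near those of all sites. The counts rest on single libraries, with 14 quiescent-specific sites without the first quiescent library (21.2%, against 28.4% of all sites) and 15 without the first activated (25.0%, against 21.8%), and with 8 activated-specific sites without the second quiescent (12.9%, against 13.9%) and 13 without the second activated library (18.8%, against 21.1%). The quiescent-specific sites were 5 of *Nfib*, 3 of *Nfia* and 1 of *Nfic*, and *Nfix* had none. The activated-specific sites were 2 of *Nfib*, 2 of *Nfix* and 1 of *Nfia*, and *Nfic* had none. A missing peak does not mean closed chromatin. The lowest pileup called in a list was 16 to 25 reads, and where the local background is higher a peak needs more. In the first reactivated library, the *Nfib* promoter site at 200 kb had 57 reads over a background of 26.0. That peak was at the 0.51 percentile of fold enrichment in its list.

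After reactivation, 8 of the 9 quiescent-specific NFI sites had a peak in both reactivated libraries, against 55% of all quiescent-specific sites, and all 5 activated-specific NFI sites did, against 91.9%. Without the first activated library 14 of 15 quiescent-specific NFI sites did, against 6749 of 10080 of all such sites. Without the first quiescent library 9 of 14 did, against 5982 of 15052. Without the second activated library 11 of 13 activated-specific NFI sites did, against 8259 of 10855. These counts were taken after the data were seen. The count for quiescent-specific sites also depended on the length of the lists. With every list limited to its 47037 strongest peaks, 2 of 10 quiescent-specific and 3 of 4 activated-specific NFI sites had a peak in both reactivated libraries, against 18.6% and 56.4% of all such sites, a check made after the data were seen. A further 13 NFI sites had a peak in both reactivated libraries and in no other, 16.5% of the 79 with a peak in both reactivated libraries, against 24.2% of all. With lists of equal length this number was 2 of 42 (4.76%), against 4.58% of all. The 13 sites had modest fold enrichments, from 2.39 to 6.65, and were 6 of *Nfib*, 5 of *Nfia* and 2 of *Nfix*.

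**Figure D2:**
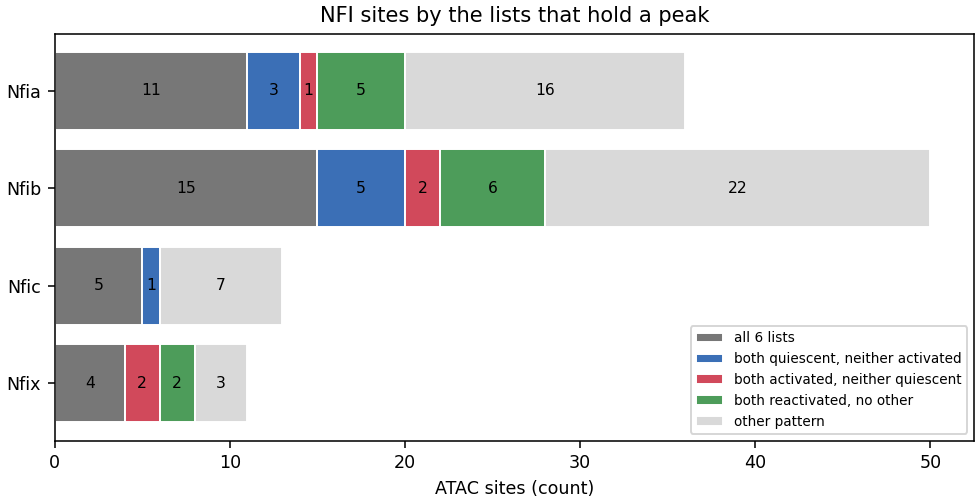
Number of ATAC-seq sites at each NFI gene by the lists that hold a peak. Of 110 sites, 35 have a peak in all 6 lists, 9 are quiescent-specific, 5 activated-specific and 13 are in both reactivated lists alone.

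Peak strength was compared at the 23116 sites with a peak in all 6 lists, of which 35 belong to NFI genes. The measure is fold enrichment, the pileup at the peak over its background, and each library was centred on its median in log2 units before limma was fitted to all sites and 3 states. P-values were adjusted by Benjamini and Hochberg over all 23116 sites. Before centring, the median site was 0.15 log2 units higher in activated than quiescent, 0.55 higher in reactivated than activated and 0.72 higher in reactivated than quiescent cells, and after it these medians were -0.07, -0.11 and -0.15. Centring took 0.22, 0.65 and 0.87 log2 units off every difference in the 3 comparisons. The 3 comparisons share libraries, so their counts are not independent.

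Between activated and quiescent cells 4 of 35 NFI sites differed (11.4%), against 11% of all sites. Of these, 2 were higher (5.76% of all sites) and 2 lower (5.29%) in activated cells. Between reactivated and activated cells 7 differed, against 16.6% of all sites, with 3 higher (6.62% of all sites) and 4 lower (9.95%) in reactivated cells. Between reactivated and quiescent cells 9 differed, against 33.6% of all sites, with 3 higher (11.2% of all sites) and 6 lower (22.5%) in reactivated cells. At an unadjusted p under 0.05 the counts were 9, 13 and 14, against 25.9%, 34.4% and 45.3% of all sites, which is near their shares of 35. Without centring, 15 NFI sites were higher and 0 lower in reactivated than activated cells, and 21 higher and 0 lower in reactivated than quiescent cells, where 49.5% and 65.9% of all sites were higher, so the split between higher and lower calls in these 2 comparisons rests on the centring.

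A change of measure also altered which sites were called. When the pileup itself was tested in place of fold enrichment, an alternative added after the data were seen, 6, 5 and 8 NFI sites differed, against 13.9%, 12.4% and 28.2% of all sites. In the comparison of reactivated with quiescent cells, all 6 sites lower by fold enrichment lost their call on pileup, while the *Nfia* site at 138 kb and the *Nfib* site at 21.2 kb stayed higher.

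**Figure D3:**
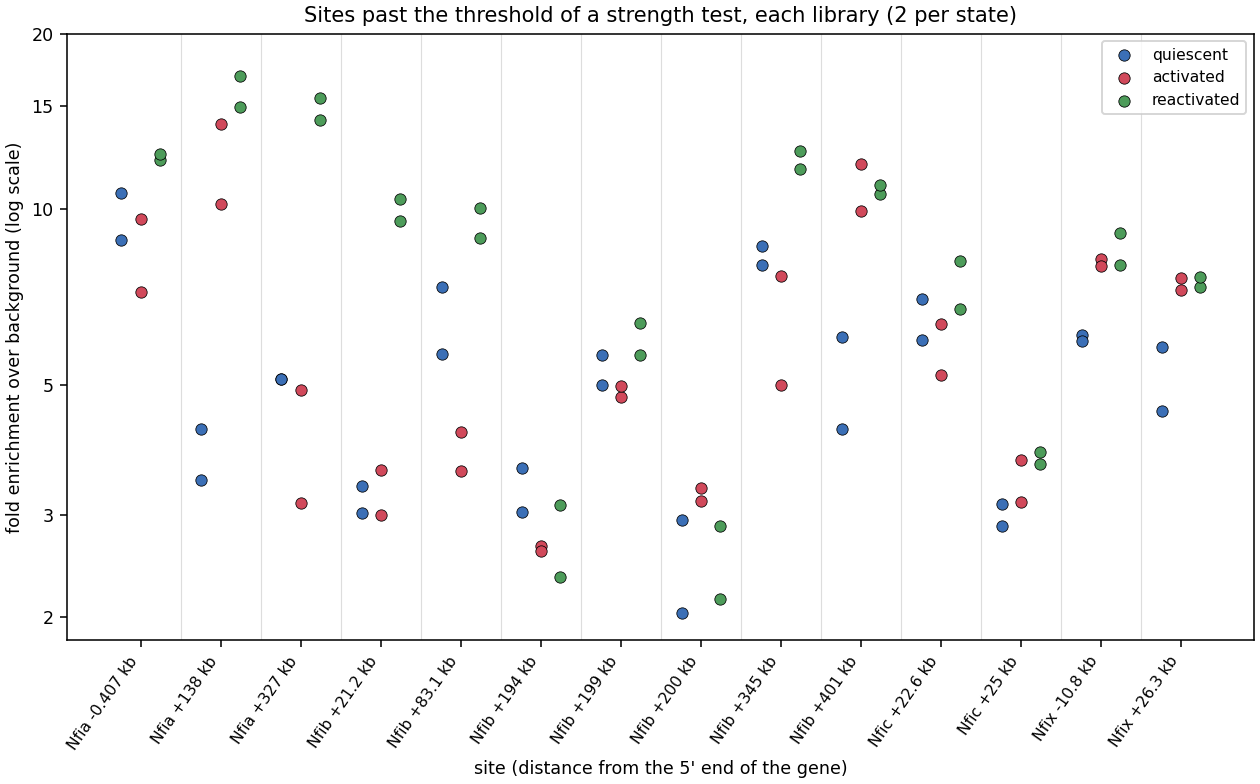
Fold enrichment over background (log scale) in each of 6 ATAC-seq libraries at the 14 NFI sites past an adjusted p of 0.05 in at least 1 comparison, named by gene and distance from its 5′ end. The *Nfia* site at 138 kb is at 3.44 to 4.21 in the quiescent libraries, 10.2 to 14.0 in the activated libraries and 14.99 to 16.9 in the reactivated libraries.

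Of the NFI sites tested, the one with the largest change between quiescent and activated cells was in *Nfia*, 138 kb into the gene at chr4:97910530-97911266, over the first exon of a non-coding processed transcript of the gene. Fold enrichment at this site was 4.21 and 3.44 in the quiescent libraries, 14.0 and 10.2 in the activated libraries and 14.99 and 16.9 in the reactivated libraries. Both quiescent libraries lay below the other 4, with no overlap. The change from quiescent to activated was 1.43 ± 0.18 log2 units (SE, n = 2 libraries per state, limma, adjusted p = 0.000839). From quiescent to reactivated it was 1.19 ± 0.18 (limma, adjusted p = 0.00136). From activated to reactivated it was -0.24 (limma, adjusted p = 0.358). The pileups, 31 and 44 reads in the quiescent libraries, 129 and 71 in the activated libraries and 199 and 209 in the reactivated libraries, had the same order, and both calls held in every alternative that gave a value (15 and 14). Flanks of 25 kb and RefSeq models, counted among these alternatives, change only which sites are assigned to a gene and could not alter a call. With 1 TSS per gene this site was not assigned to *Nfia*, and with a minimum −log10 q of 10 it lacked a peak in some list and was not tested. An H3K4me3 peak overlapped the site in both states.

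Near the 3′ end of *Nfia*, an intronic site at 327 kb, chr4:98099454-98099784, was highest in reactivated cells. Fold enrichment at this site was 5.13 and 5.12 in the quiescent libraries, 4.91 and 3.14 in the activated libraries and 15.5 and 14.2 in the reactivated libraries. Reactivated libraries lay well above the other 4. The change was 1.27 ± 0.19 log2 units against activated (limma, adjusted p = 0.00516), called in the 13 alternatives that gave a value. Flanks of 25 kb, counted among the 13, could not alter the call. With 1 TSS per gene or RefSeq models the site was not assigned to *Nfia*, and with a minimum −log10 q of 10 it was not tested. Against quiescent cells it was 0.66 (limma, adjusted p = 0.0187), but 0.21 (limma, adjusted p = 0.487) on pileups. The difference between activated and quiescent cells was -0.61 and did not pass (limma, adjusted p = 0.0566).

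The quiescent-specific sites of *Nfia* were all intronic and deep in the gene. The strongest, at 319 kb (chr4:98091376-98092062), had fold enrichments of 9.99 and 6.57 in the quiescent libraries and 2.80 and 4.12 in the reactivated libraries. Its pileups were 75 and 85 reads in quiescent against 20 and 30 in the reactivated libraries, so reactivated cells had the peak at a lower pileup. A site at 225 kb (chr4:97997178-97997490) had 6.05 and 4.28 in the quiescent libraries and 5.74 and 6.12 in the reactivated libraries. A site at 164 kb (chr4:97936920-97937249) had 4.21 and 3.21 in the quiescent libraries and 5.20 and 6.38 in the reactivated libraries. Quiescent and reactivated values overlapped at 225 kb, and at 164 kb the reactivated values lay above the quiescent ones. The 1 activated-specific site of *Nfia*, intronic at 2.46 kb (chr4:97775087-97775301), had 3.94 and 3.11 in the activated libraries and 3.99 and 3.95 in the reactivated libraries. With 1 TSS per gene none of the 3 quiescent-specific sites was assigned to *Nfia*, and with RefSeq models the one at 319 kb was not. With a minimum −log10 q of 10, the sites at 164 kb and 2.46 kb were no longer state-specific.

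The main *Nfia* promoter, just upstream of the gene's 5′ end (chr4:97772087-97772567), was open in every library. Fold enrichment at this site was 10.7 and 8.86 in the quiescent libraries, 9.63 and 7.22 in the activated libraries and 12.1 and 12.5 in the reactivated libraries. After centring it was lower in reactivated than quiescent cells, with a difference of -0.54 ± 0.17 log2 units (limma, adjusted p = 0.0316), although its uncentred values were higher. On pileups the difference was -0.11 (limma, adjusted p = 0.749). The local background at the summit was 9.585 and 14.6 reads in the quiescent libraries, 12.7 and 9.105 in the activated libraries and 17.9 and 17.2 in the reactivated libraries. The strongest *Nfia* sites away from promoters were at 232 kb (chr4:98004110-98004681), with 7.10 and 5.81 in the quiescent libraries, 9.59 and 7.56 in the activated libraries and 12.5 and 15.5 in the reactivated libraries, and at 96.2 kb (chr4:97868309-97869483), with 7.63 and 6.34, 8.28 and 7.11, and 9.41 and 11.7. Neither passed a test of strength.

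At *Nfib*, sites changed in both directions and along the whole gene. The site at 401 kb, in an intron near the 3′ end (chr4:82304159-82304802), had fold enrichments of 6.05 and 4.20 in the quiescent libraries, 11.9 and 9.92 in the activated libraries and 10.6 and 11.02 in the reactivated libraries. Quiescent libraries were below the other 4. The change from quiescent to activated was 0.89 ± 0.19 log2 units (limma, adjusted p = 0.009996), and without the second quiescent library the adjusted p was 0.0887. The change from activated to reactivated was -0.66 (limma, adjusted p = 0.0340) with centring and -0.01 without.

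In the opposite direction, the intronic *Nfib* site at 83.1 kb (chr4:82622336-82622974) was lower in activated cells. Fold enrichment there reached 7.36 and 5.66 in the quiescent libraries, 4.15 and 3.57 in the activated libraries and 10.04 and 8.94 in the reactivated libraries. Before centring the 3 states did not overlap, with activated cells lowest and reactivated cells highest. After centring, reactivated cells differed from quiescent cells by -0.32 (limma, adjusted p = 0.189), or by -0.66 (limma, adjusted p = 0.0237) on pileups. The change from quiescent to activated was -0.97 ± 0.18 log2 units (limma, adjusted p = 0.00555), and without the first quiescent library the adjusted p was 0.0531. From activated to reactivated it was 0.65 (limma, adjusted p = 0.0327), or 0.35 (limma, adjusted p = 0.270) on pileups. This site was not assigned to *Nfib* with RefSeq models and not tested with a minimum −log10 q of 10. A further intronic site, at 345 kb (chr4:82360102-82360712), had 8.02 and 8.64 in the quiescent libraries, 7.69 and 4.99 in the activated libraries and 12.6 and 11.7 in the reactivated libraries. Its change to activated cells, -0.65 ± 0.19 (limma, adjusted p = 0.0452), was called in 7 of 17 alternatives. Among the 7 were 1 TSS per gene, flanks of 25 kb and RefSeq models, which could not alter the call. Its centred difference between reactivated and quiescent cells was -0.33 (limma, adjusted p = 0.192), or -0.71 (limma, adjusted p = 0.0217) on pileups.

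The *Nfib* site at 21.2 kb (chr4:82684174-82685026), within an intron and under an H3K4me3 peak of quiescent cells alone, was strongest after reactivation. There, fold enrichment reached 3.02 and 3.36 in the quiescent libraries, 3.58 and 2.99 in the activated libraries and 9.54 and 10.4 in the reactivated libraries. Quiescent and activated values overlapped and reactivated values lay far above. The change was 0.95 ± 0.17 log2 units against activated (limma, adjusted p = 0.00906) and 0.77 against quiescent cells (limma, adjusted p = 0.00696), and each was called in 12 of the 14 alternatives that gave a value. With RefSeq models the site was not assigned to *Nfib*, and no NFI site was then higher in reactivated than activated cells. With a minimum −log10 q of 10 it was not tested. Flanks of 25 kb and 1 TSS per gene, counted among the 14, could not alter its calls.

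Around the internal *Nfib* promoters, 199 to 200 kb from the 5′ end, sites were lower in reactivated cells by centred fold enrichment. The promoter site at 199 kb (chr4:82506069-82507310) had 5.63 and 5.01 in the quiescent libraries, 4.78 and 4.98 in the activated libraries and 5.63 and 6.39 in the reactivated libraries. The promoter site at 200 kb (chr4:82505230-82505966) had 2.03 and 2.94, 3.33 and 3.17, and 2.15 and 2.87. The site at 194 kb (chr4:82511524-82511852) had 3.03 and 3.603, 2.65 and 2.60, and 3.11 and 2.35. Before centring, reactivated and quiescent values overlapped at the 194 and 200 kb sites, while activated values were above both at 200 kb and below the quiescent ones at 194 kb. At the 199 kb site the reactivated values were at or above the rest.

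Against quiescent cells the centred differences of these 3 sites were -0.70 (limma, adjusted p = 0.0132), -0.85 (limma, adjusted p = 0.0145) and -1.16 ± 0.21 (limma, adjusted p = 0.00262). On pileups they were 0.04 (limma, adjusted p = 0.903), -0.13 (limma, adjusted p = 0.693) and -0.41 (limma, adjusted p = 0.149), so none was called. Against activated cells the site at 200 kb was lower, with a difference of -1.04 ± 0.23 (limma, adjusted p = 0.0141), a call kept on pileups (-0.84) but lost without centring (-0.39, limma, adjusted p = 0.169), with quantile normalization (-0.60, limma, adjusted p = 0.162) and without the first reactivated library (limma, adjusted p = 0.112). Local background at the 199 kb site was 12.2 and 17.0 reads in the quiescent libraries, 18.3 and 13.3 in the activated libraries and 26.3 and 26.7 in the reactivated libraries, and its part in these differences was measured only through the pileup values. The sites at 194 and 200 kb were not tested with a minimum −log10 q of 10 or with lists of equal length.

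Within 1 kb of the most upstream *Nfib* TSS, inside the gene, lay a quiescent-specific site at 0.579 kb (chr4:82704782-82705561). Fold enrichments were 6.44 and 5.04 in the quiescent libraries and 4.24 and 7.14 in the reactivated libraries, with no peak in either activated library. It was 1 of 6 NFI sites under an H3K4me3 peak of quiescent cells alone. An intergenic site 24.8 kb upstream (chr4:82730251-82730762) was quiescent-specific too, with 6.57 and 6.42 in the quiescent libraries and 7.87 and 7.98 in the reactivated libraries. With RefSeq models neither of these 2 sites was assigned to the NFI genes. The intronic site at 163 kb (chr4:82542204-82542430) had 5.13 and 3.97 in the quiescent libraries and 8.32 and 5.32 in the reactivated libraries. It stayed quiescent-specific with a minimum −log10 q of 10, lists of equal length, 1 TSS per gene and RefSeq models. Leaving out a library could not remove this class, because a state left with 1 library was judged on that library alone. The other quiescent-specific *Nfib* sites, neighbours at 268 kb (chr4:82437974-82438366 and chr4:82437568-82437871), were weaker, between 2.22 and 4.60 in quiescent libraries. Neither stayed quiescent-specific with a minimum −log10 q of 10, nor did the first with lists of equal length.

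A strong activated-specific *Nfib* site lay close to those neighbours, at 270 kb (chr4:82435662-82436294). Fold enrichment at this site was 11.1 and 10.8 in the activated libraries and 10.1 and 10.1 in the reactivated libraries, at the 92.0 and 94.6 percentiles of peaks in the activated lists. It stayed activated-specific in all 13 alternatives, although leaving out a library could not remove this class. The other, at 241 kb (chr4:82464325-82464683), had 3.18 and 3.85 in the activated libraries and 7.17 and 7.18 in the reactivated libraries, and did not stay activated-specific with a minimum −log10 q of 10 or with lists of equal length. The strongest *Nfib* site over all libraries, at 192 kb (chr4:82512955-82513603), had 9.33 and 11.1 in the quiescent libraries, 12.3 and 10.8 in the activated libraries and 13.7 and 13.5 in the reactivated libraries and passed no test of fold enrichment.

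At *Nfic*, the intronic site at 22.6 kb (chr10:81432898-81433251) had 7.01 and 5.96 in the quiescent libraries, 6.35 and 5.21 in the activated libraries and 6.74 and 8.15 in the reactivated libraries. The states overlapped before centring. After it, reactivated cells were lower than quiescent cells, with a difference of -0.68 (limma, adjusted p = 0.0124), against 0.20 without centring and -0.50 on pileups (limma, adjusted p = 0.0821). The promoter site at 25.0 kb (chr10:81430229-81430990) had 3.13 and 2.87, 3.72 and 3.16, and 3.67 and 3.84, with a centred difference of -0.55 between reactivated and quiescent cells (limma, adjusted p = 0.0248) that was 0.32 without centring. It was called in 7 of the 14 alternatives that gave a value. Among the 7 were 1 TSS per gene, flanks of 25 kb and RefSeq models, which could not alter the call. It was not tested with a minimum −log10 q of 10 or with lists of equal length.

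A downstream *Nfic* promoter at 47.9 kb (chr10:81407540-81407898) was open in every library, with 4.79 and 2.81 in the quiescent libraries, 6.24 and 5.50 in the activated libraries and 5.42 and 7.72 in the reactivated libraries, and passed no test. The site at 38.6 kb (chr10:81416769-81417371) had no peak in the first quiescent library and 2.71 in the second, against 6.48 and 6.39 in the activated libraries and 8.17 and 8.99 in the reactivated libraries. It was not tested for strength, for lack of a peak in the first quiescent library, and the peak in the second kept it from being activated-specific. The quiescent-specific promoter site at 24.0 kb (chr10:81431548-81431820), with 3.29 and 2.996 in quiescent libraries and 2.58 in 1 reactivated library, was the 1 of 9 without a peak in both reactivated libraries, and it did not stay quiescent-specific with a minimum −log10 q of 10.

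Both state-specific sites of *Nfix* were activated-specific, and neither stayed so with a minimum −log10 q of 10. The intronic site at 13.8 kb (chr8:84786336-84786767) had no peak in the quiescent libraries, 3.71 and 3.23 in the activated libraries and 9.04 and 6.45 in the reactivated libraries. The intronic site at 34.3 kb (chr8:84765841-84766166) had 4.24 and 3.18 in the activated libraries and 6.17 and 4.79 in the reactivated libraries. It overlapped an H3K4me3 peak found in quiescent cells alone, which was weak, at the 0.722 percentile of fold enrichment in its list.

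The strongest *Nfix* site, between genes 10.8 kb upstream (chr8:84810900-84811305), had 6.08 and 5.96 in the quiescent libraries, 8.21 and 7.99 in the activated libraries and 8.02 and 9.10 in the reactivated libraries. Quiescent values lay below the rest before centring, after which reactivated cells differed from quiescent cells by -0.37 (limma, adjusted p = 0.121). Its centred change from activated to reactivated cells was -0.57 (limma, adjusted p = 0.0435), but 0.08 without centring, and the call was lost when any 1 library was left out. The promoter site at 26.3 kb (chr8:84773852-84774283) had 4.51 and 5.81, 7.27 and 7.62, and 7.35 and 7.64, with a centred change of -0.64 between the same states (limma, adjusted p = 0.0494) and 0.01 without centring. The site over the most upstream TSS (chr8:84799975-84800720) was weak, at 2.14 in 1 quiescent library, 2.70 and 2.69 in the activated libraries and 5.09 and 3.43 in the reactivated libraries. An intronic site at 5.94 kb (chr8:84793860-84794951) had 4.18 and 5.65, 6.05 and 4.86, and 9.57 and 8.08 and passed no test of fold enrichment.

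As a group, the 9 promoter sites of NFI genes had centred fold enrichments in reactivated cells below those of both other states, a direction that turns without centring. Against activated cells all 9 differences were below 0, with a median of -0.51, where promoters of all genes had a median of -0.18 and 32.4% above 0. Against quiescent cells all 9 were below 0, with a median of -0.55, against -0.24 and 30.5% above 0 for all promoters. By themselves 2 of the 9 passed the test as lower against activated cells (22.2%, against 10.7% of all promoters) and 4 against quiescent cells (44.4%, against 26.2%). Without centring the medians of the 9 were 0.14 and 0.32, with 8 and 9 above 0, against 0.48 and 0.63 for all promoters, with 10445 and 10695 of 11254 above 0. On pileups the medians of the 9 were -0.35 and -0.08, against -0.03 and -0.08 for all promoters. Between activated and quiescent cells the median was -0.03 for the 9 and -0.08 for all promoters, and on pileups it was 0.29 for the 9 (range -0.17 to 0.70) and -0.05 for all promoters. At the 26 sites away from promoters the medians were -0.11 for activated against quiescent, 0.05 for reactivated against activated and -0.10 for reactivated against quiescent, close to the -0.05, -0.02 and -0.04 of all sites of that kind.

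H3K4me3 at *Nfib* and *Nfia* formed domains among the widest in the series, and at nearly the same place in both states. At *Nfib* the domain spanned chr4:82494575-82513904 in quiescent cells (19330 bp, rank 3 of 17166 by width) and chr4:82494590-82514145 in activated cells (19556 bp, rank 2 of 15962). It held 3 internal TSSs and 9 ATAC sites. At *Nfia* it spanned chr4:97771367-97781653 (10287 bp, rank 20) and chr4:97771442-97781503 (10062 bp, rank 17), over 6 TSSs and 4 ATAC sites. The median peak was 1734 bp wide in quiescent cells and 1708 bp in activated cells, and 0.122% and 0.113% of peaks were wider than 10 kb.

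The H3K4me3 peaks of *Nfix* were narrower in activated cells. The peak over its internal TSSs covered 5162 bp in quiescent (chr8:84770751-84775912) and 3544 bp in activated cells (chr8:84771797-84775340). The peak at the most upstream TSSs covered 2748 bp (chr8:84798182-84800929) and 2333 bp (chr8:84798500-84800832). Intronic peaks covered 2193 and 1385 bp at chr8:84778419-84780611 and chr8:84779145-84780529, and 1212 and 565 bp at chr8:84793633-84794844 and chr8:84794068-84794632. At all 4 places the quiescent peak was the wider, in 1 library per state, as were 74.0% of the 15493 H3K4me3 peaks with a single counterpart in the other list. Over the 4 NFI genes it was the wider in 11 of 17 such pairs (64.7%). A peak of 257 bp at chr8:84765887-84766143 was in the quiescent list alone.

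At *Nfic*, the peak over 3 TSSs at chr10:81426346-81427257 covered 912 bp in quiescent cells and 1425 bp in activated cells (chr10:81425965-81427389) and held no ATAC site. The peak at chr10:81429649-81431520 covered 1872 bp in quiescent cells and 1731 bp in activated cells (chr10:81429703-81431433), and a small one further downstream 329 bp (chr10:81407276-81407604) and 340 bp (chr10:81407286-81407625). *Nfic* thus had 3 peaks in each state, in the same places.

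The remaining *Nfia* peaks, 6 in each state, overlapped between the states and were 293 to 2343 bp wide in quiescent cells and 382 to 1980 bp in activated cells. At *Nfib*, 4 small peaks were in the quiescent list alone, at chr4:82344580-82345023, chr4:82404093-82404729, chr4:82683900-82684809 and chr4:82704515-82705209, the last 2 near the upstream end of the gene. A peak at chr4:82400615-82400967 was in the activated list alone. The other *Nfib* peaks, 938 and 1326 bp wide in quiescent cells, had counterparts of 863 and 943 bp in activated cells. Over the 4 genes, 17 of 22 quiescent and 17 of 18 activated peaks had a single counterpart in the other list. In the series, 15493 of 17166 quiescent and 15493 of 15962 activated peaks did. Summed over the 4 genes, H3K4me3 peaks covered 57787 bp in quiescent cells and 50649 bp in activated cells, in lists of 17166 and 15962 peaks.

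Many accessible NFI sites lay under H3K4me3 peaks, in part because of the wide domains of *Nfib* and *Nfia*. An H3K4me3 peak of both states overlapped 35 of 110 NFI sites, against 20.3% of all sites. Away from promoters this was 22 of 94 NFI sites (23.4%, exact 95% interval 15.3 to 33.3%), against 5.94%. An H3K4me3 peak of quiescent cells alone overlapped 6 NFI sites (5.45%), against 1.78% of all sites, and one of activated cells alone 1 site, against 0.409%. Away from promoters these were 5 and 1 sites, against 1.7% and 0.424%. The wide domains of *Nfib* and *Nfia* hold 9 and 4 sites, all of them under H3K4me3 in both states and not independent of each other. Without these 13, the peaks of both states overlapped 22 of 97 NFI sites (22.7%), near the share of all sites, and 14 of 86 away from promoters (16.3%). No test of these shares is given, and the intervals take the sites as independent.

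**Figure D4:**
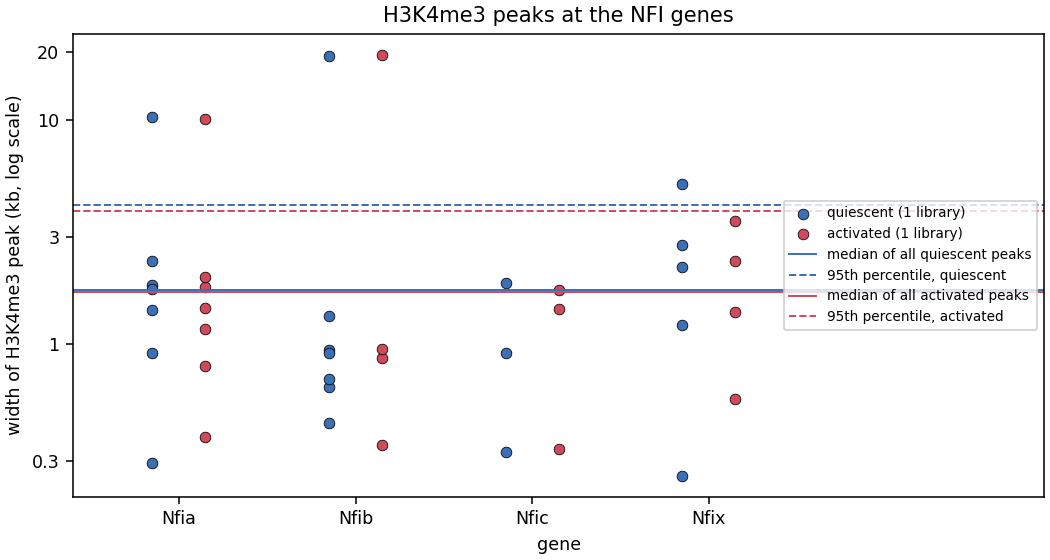
Width of each H3K4me3 peak (kb, log scale) at the 4 NFI genes in quiescent and in activated cells, 1 library per state, with lines for the median and the 95th percentile of all peaks. *Nfib* has a peak of 19330 and 19556 bp and *Nfia* one of 10287 and 10062 bp, far above the 95th percentiles of 4149 and 3925 bp.

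The NFI element itself was frequent at the NFI genes. In 300 bp around the middle of each site, TTGGC was present on either strand at 74 of 110 NFI sites (67.3%, exact 95% interval 57.7 to 75.9%), against 54.1% of all sites. Among sites in all 6 lists it was present at 26 of 35 (74.3%), against 53.2%, and among quiescent-specific sites at 5 of 9 (55.6%), against 63.8%. The full palindrome was in no NFI window, against 0.128% of all windows, and in whole sites it was in 1 of 110 (0.909%), against 0.140%. Shares of the other motifs were near those of all sites, with CAGCTG at 23.6% against 26.7%, GGCGCC at 8.18% against 7.98% and TGANTCA at 8.18% against 10.2%. A match describes the letters in a window and not a bound site.

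Of the accessible signal of each library, *Nfib* took the largest part among the members, in GENCODE M21 models with all TSSs. In parts per 100000 of a library's summed fold enrichment, *Nfib* took 58.3 and 52.9 in the quiescent libraries, 53.1 and 50.1 in the activated libraries and 54.6 and 50.2 in the reactivated libraries. *Nfia* took 37.4 and 36.8, 33.7 and 27.4, and 36.3 and 37.2. Its activated values were below those of both other states, as were those of 8.75% of the 13007 genes with a peak in every library, and the lower of them is from the library with the shortest list. *Nfix* took 7.67 and 11.7, 15.8 and 16.02, and 12.2 and 11.8, highest in activated cells without overlap, as were 14.4% of these genes, and lowest in quiescent cells without overlap, as were 13.3%. *Nfic* took 8.54 and 13.5, 11.9 and 14.3, and 8.29 and 8.34, lowest in reactivated cells without overlap, as were 31.2% of these genes, with quiescent and activated values overlapping. The order *Nfib*, *Nfia*, then *Nfic* and *Nfix* held in every library, and the last 2 exchanged places between libraries. These shares grow with the number of sites assigned to a gene, so their order is limited to these gene models. With RefSeq models *Nfia* held more sites than *Nfib* (74 and 34), and with 1 TSS per gene fewer than *Nfix* (8 and 11).

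Of 1496 genes with at least 5 peaks in every library, those whose shares followed a member most closely over the 6 libraries were *Alk* (r = 0.973), *Rapgef5* (0.963) and *Lrrc8d* (0.953) for *Nfia*, and *Itgav* (0.977), *Ctnnd2* (0.976) and *Sipa1l1* (0.972) for *Nfib*. For *Nfic* they were *Btd* (0.981), *Sox2* (0.978) and *Klhl42* (0.977), and for *Nfix* *Rassf3* (0.988), *Smad7* (0.985) and *1190002N15Rik* (0.968). Among the members, *Nfia* with *Nfib* gave 0.517 and *Nfic* with *Nfix* 0.637, while *Nfia* with *Nfix* gave -0.77. These Pearson correlations are descriptions over 6 libraries, which differ in depth and list length, and those named are the highest of 1496 values.

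A list of 18 upstream factors, partners and targets of NFI was taken by the same rule. Of their 201 sites, 93 had peaks in at least 2 of the 4 quiescent and activated libraries, and 15 (16.1%) were quiescent-specific and 6 (6.45%) activated-specific, against 14.7% and 9.97% of all sites. Among their 50 sites in all 6 lists, 7 were higher (14%) and 2 lower (4%) in activated than quiescent cells, against 5.76% and 5.29% of all sites. *Aqp4*, the water channel of astrocytes, had 4 quiescent-specific of 6 such sites, and *Slc1a2*, an astrocyte glutamate transporter, had 4 of 10 and 1 site lower in activated cells. Of the other 7 astroglial targets, *Slc1a3* had 1 site specific to each state, *Zcchc24* had 1 activated-specific site and 2 higher in activated cells, and *Apcdd1* had 1 activated-specific site, while *Fabp7*, *S100b* and *Mmd2* had neither a specific nor a called site. *Sox9*, which acts upstream of *Nfia* in gliogenesis, had 1 activated-specific site and 1 higher in activated cells, and *Gfap*, the last of the astroglial targets, had 1 site higher in activated cells. *Zbtb20*, a factor of astrocyte formation, had 3 quiescent-specific sites, 1 activated-specific site and 1 higher in activated cells. *Pou3f2* had 1 site specific to each state and *Pax6* had 1 quiescent-specific site. Among progenitor targets, *Bbx* had 1 quiescent-specific site, 1 higher and 1 lower in activated cells, and *Insc* had 1 higher. *Rbpj*, *Hes1* and *Ezh2* had neither a specific nor a called site. Of the list's state-specific sites, 7 of 15 quiescent-specific and 6 of 6 activated-specific had a peak in both reactivated libraries, against 55% and 91.9% of all such sites.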

How the data were processed

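The material was ATAC-seq of NSPCs in 3 states with 2 libraries each, and ChIP-seq for H3K4me3 in quiescent and in activated cells with 1 library and 1 input each. Per the labels, the authors used Trim Galore 0.4.0, Bowtie2 2.2.5, Picard 1.88, SAMtools 1.3.1 and HOMER with mm10. The authors called ATAC peaks with MACS at an FDR of 0.05, after reducing the reads of the reactivated libraries, and called H3K4me3 in broad mode (q 0.05, broad cutoff 0.01, extension 150 bp) over the inputs. The deposited fold enrichment is a linear ratio of pileup to background, not normalized between libraries. The −log10 p-values and −log10 q-values that the authors deposited are per library and depend on its depth. The score deposited beside them was not used.

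Peaks on chromosomes 1 to 19, X and Y were used, with GENCODE M21 models. Sites, classes, motifs and figures were made with Python 3.11.15, numpy 2.4.6, pandas 2.3.3, scipy 1.17.1, pysam 0.24.0 and matplotlib 3.10.9, and strength was tested with limma 3.58.1 in R 4.3.3. A site takes the strongest peak of each library. Pileup and background at summits were recovered from the 2 deposited measures by inverting the Poisson formula of MACS, to within 0.02% of the −log10 p. This worked for at least 99.9976% of peaks in each library at the 23116 sites in all 6 lists. In samples of peaks with a −log10 p up to 40, from which the lowest called pileup was read, it worked for 100%. The lowest called pileup, 16 to 25 reads, limits what a missing peak means, and more reads are needed where the local background is higher. Sites specific to a state were listed in both its libraries and in neither of the other state, among sites with peaks in at least 2 of the 4 libraries. Shares have exact Clopper-Pearson 95% intervals. The limma step was tested on simulated data for activated against quiescent, on 23116 sites. The simulated noise was normal with the same spread at every site, and 100 sites were changed by each fold. The test recovered 88% of sites changed by a log2 fold of 1 and 100% of those changed by 2, with 12 false calls. These rates hold for that simulation and not for the real libraries.

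The members, the lists of genes and the tests were chosen with earlier results of these data known. Sites were named if they were the strongest promoter site of a member, specific to a state, past a test's threshold, or among the 2 strongest of a gene away from promoters, and every H3K4me3 peak of a member was described. Alternatives tried were peaks with a −log10 q of at least 10, lists of equal length, merging by shared bases alone, 1 TSS per gene, flanks of 25 kb, sites from the quiescent and activated lists alone, a replicate block, no centring, quantile normalization and each library left out. RefSeq gene models, pileups in place of fold enrichment, and motif windows around summits were added after the data were seen. Gene models, TSSs per gene and flanks change only which sites are assigned to a gene. They leave the limma result of a site as it is.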

Additional observations from a re-analysis of the deposited data

How the results depend on the processing

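The number of NFI sites was 101 to 112 with 1 library left out. Quiescent-specific sites then numbered 9 to 15 (14 without quiescent 1, 15 without activated 1). Activated-specific sites numbered 5 to 13 (8 without quiescent 2, 13 without activated 2). Sites of the reactivated lists alone numbered 13 to 24 (21 without activated 1, 22 and 24 without either reactivated library). The 21, 22 and 24 were 25.9%, 23.9% and 25.0% of NFI sites with a peak in each reactivated library used. The shares of all such sites were 30.3%, 35.1% and 35.5%. Sites that differed in strength numbered 2 to 5 for activated against quiescent (2 without quiescent 2), 1 to 7 for reactivated against activated (4 and 3 without either activated, 1 and 2 without either reactivated library) and 3 to 10 for reactivated against quiescent (4 without quiescent 2, 3 and 4 without either reactivated library). The share of all sites called fell too, for reactivated against activated from 16.6% to 10.8% and 4.34% without either activated library and to 0.835% and 2.78% without either reactivated library, for reactivated against quiescent from 33.6% to 16.2% without quiescent 2 and to 12.9% and 17.0% without either reactivated library, and for activated against quiescent from 11% to 4.71% without quiescent 2. A minimum −log10 q of 10 gave 3 activated-specific sites (7.89%, against 11.1% of all sites). Strength counts were then 1, 1 and 4 among 18 NFI sites tested (6.11%, 16.3% and 30.1% of all sites). H3K4me3 then covered 48080 bp in quiescent and 45246 bp in activated cells. With 1 TSS per gene, sites of the reactivated lists alone were 8 (13.8%, against 24.2% of all), and H3K4me3 covered 42650 and 36277 bp. Equal lists left 2 sites of the reactivated lists alone (4.76%, against 4.58% of all). RefSeq models, chosen after the data were seen, gave 8 activated-specific sites (12.7%, against 9.97% of all sites). For reactivated against activated they gave 0 higher and 6 lower, against 6.62% and 9.95% of all sites. Without centring, strength counts against reactivated cells were 15 and 21, all higher, and differences turned to 0.0772 and 0.0104 at the *Nfix* sites at -10.8 and 26.3 kb, 0.34 at the *Nfia* promoter, 0.18 and 0.0229 at the *Nfib* promoters at 199 and 200 kb, and 0.20 and 0.32 at the *Nfic* sites at 22.6 and 25.0 kb. On pileups the *Nfib* promoter at 199 kb turned to 0.0413. The cause of these changes was not tested. Replicate numbers did not pair the libraries (correlations of deviations -0.0013, 0.042 and -0.017). A replicate block gave strength counts of 3, 8 and 9 (10.7%, 15.6% and 33.0% of all sites).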

Other observations

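GENCODE M21 begins *Nfia* at its internal promoters, whereas the RefSeq model of GRCm38.p6, consulted after the data were seen, begins at chr4:97578066. With it, 42 further sites are assigned to *Nfia*, 34 upstream of the GENCODE gene and 8 inside it, and 4 of the 36 sites are no longer assigned. Of the 34 upstream sites, 2 have a peak in all 6 lists (5.88%, against 21.3% of all sites). The second most upstream TSS of this model, at position 97581943, lies under an H3K4me3 peak of 4547 bp in quiescent cells (chr4:97580870-97585416) and 4432 bp in activated cells (chr4:97580780-97585211). A site at chr4:97618457-97619394 had fold enrichments of 7.99 and 6.04 in the quiescent libraries, 11.8 and 10.4 in the activated libraries and 12.3 and 10.96 in the reactivated libraries. A site at chr4:97649040-97650115 had 12.4 and 11.7 in the quiescent libraries, 10.9 and 8.38 in the activated libraries and 9.29 and 9.27 in the reactivated libraries. A site at chr4:97625702-97626392 had no peak in the first quiescent library and 3.06 in the second, against 9.26 and 7.75 in the activated libraries and 12.4 and 8.95 in the reactivated libraries. These 3 sites were picked after their values were seen, and no test of them is given.

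On pileups, 9 differences at NFI sites were called that fold enrichment did not call. The differences are in log2 units relative to the median site of each library, as before. Higher in reactivated than quiescent cells were intronic sites of *Nfib* at 15.3 kb (0.62, limma, adjusted p = 0.0477) and 173 kb (0.76, limma, adjusted p = 0.0113) and of *Nfix* at 5.94 kb (0.63, limma, adjusted p = 0.0424). Lower in reactivated than quiescent cells were intronic sites of *Nfic* at 5.28 kb (-1.04, limma, adjusted p = 0.00197) and of *Nfib* at 345 kb (-0.71, limma, adjusted p = 0.0217) and 83.1 kb (-0.66, limma, adjusted p = 0.0237). Uncentred pileups were 25 and 47 reads in the quiescent libraries against 37 and 29 in the reactivated at the *Nfic* site, 60 and 112 against 112 and 87 at 345 kb, and 55 and 73 against 86 and 73 at 83.1 kb, so the uncentred values overlapped. Between activated and quiescent cells the *Nfib* promoter at 200 kb was higher (0.70, limma, adjusted p = 0.0417) and the *Nfia* site at 327 kb lower (-0.67, limma, adjusted p = 0.0430) in activated cells, and between reactivated and activated cells the *Nfic* site at 5.28 kb was lower in reactivated cells (-0.89, limma, adjusted p = 0.0135).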
